A study of Homo sapiens with 3 samples.

Results

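The genes described here are 8 immediate early genes, FOS, FOSL1, JUN, JUNB, EGR1, KLF6, IER2 and DUSP1, at which peaks of the TFIIH helicases XPB and XPD were looked up by position. A peak was counted for a gene when its summit, the base with the highest pileup of sequenced fragments, lay within 2 kb of the hg19 gene start. This gave 11 of the 21555 XPB peaks and 9 of the 14570 XPD peaks. The peaks came from chromatin immunoprecipitation and sequencing in HT1080, an established human fibrosarcoma line grown with 5% serum. The study had 1 library with an antibody against XPB, 1 with an antibody against XPD and 1 input library without enrichment, all from the same crosslinked chromatin, so nothing below has a replicate check. The labels name no treatment, and no serum stimulation or starvation step. The input was not analysed here.

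Immediate early genes are transcribed within minutes of a growth factor, serum or stress signal, from transcription factors already present in the cell, and many keep an engaged RNA polymerase near the start before the signal arrives. FOS, FOSL1, JUN and JUNB encode subunits of the dimeric factor AP-1, EGR1 and KLF6 encode zinc-finger transcription factors, DUSP1 encodes a phosphatase that switches MAP kinases off, and IER2 encodes a nuclear protein of the early response. TFIIH joins RNA polymerase II at the promoter, where XPB drives the opening of the DNA. XPD, a DNA helicase, is the other ATPase of the complex and is known above all for opening damaged DNA in nucleotide excision repair.

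An XPB summit lay within 2 kb of the start of 7 of the 8 genes, and an XPD summit of 4 of the 8. JUN, JUNB, IER2 and KLF6 had both. FOS, FOSL1 and DUSP1 had XPB alone, and EGR1 had neither. Over all positions between the outermost peaks of each chromosome, 2.71% lay within 2 kb of an XPB summit and 1.86% within 2 kb of an XPD summit. Most positions are not gene starts, and the share of all gene starts with a summit was not computed here, so these counts do not set the 8 genes apart from other genes. The median distance from the start to the nearest summit was 72.5 bp for XPB and 1678 bp for XPD. The XPB median stands for 6 genes with a summit within 250 bp of the start, and XPD had 3 such genes.

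**Figure D1:**
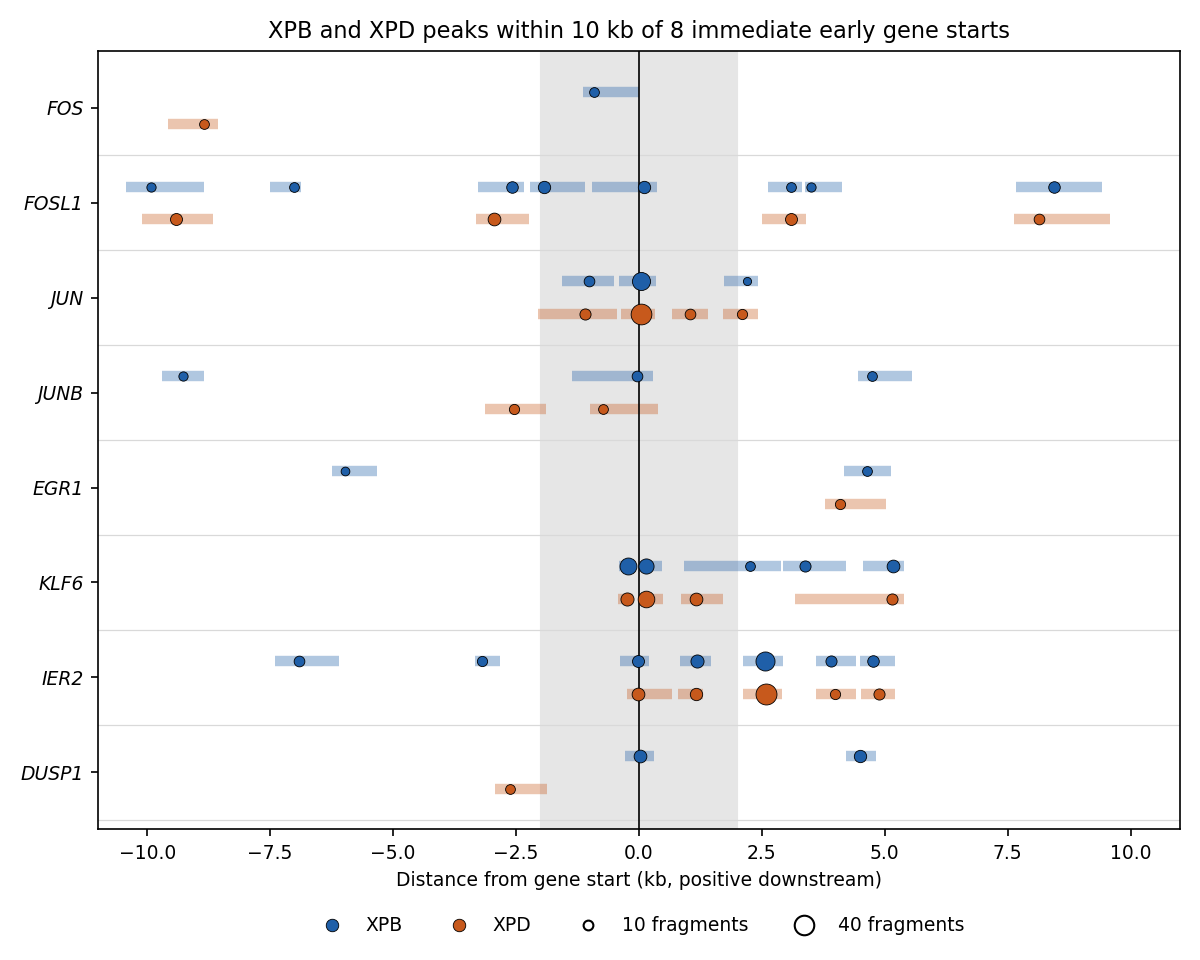
Peaks of XPB (blue) and XPD (orange) with a summit within 10 kb of each gene start, by distance from the start in kb, positive in the direction of transcription. Bars span the peak, circles mark the summit with an area proportional to its height in fragments, and the grey band is the 2 kb window. JUN, KLF6 and IER2 have summits of both proteins within 250 bp of the start, and the band holds no summit at EGR1.

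JUN and KLF6 had summits of both proteins within 250 bp of the start, and DUSP1 had XPB alone. FOS had an XPB peak at the lower limit of the list, and EGR1 had no summit within 2 kb. The letters upstream of these 5 starts are shown because the genes cover this range of outcomes. Each is the 250 bases before the RefSeq start on GRCh38.p14, 5′ to 3′ on the gene's strand. That start need not be the same base as the hg19 start, so peak distances are not mapped onto these letters. Capitals mark matches to a CArG box (the serum response factor motif), TGACG (the core of the cyclic AMP response element), TATAAA, or a G-quadruplex motif (at least 4 runs of at least 3 G with 1 to 7 bases between them), on either strand.
JUN, chr1:58784048-58784297, minus strand: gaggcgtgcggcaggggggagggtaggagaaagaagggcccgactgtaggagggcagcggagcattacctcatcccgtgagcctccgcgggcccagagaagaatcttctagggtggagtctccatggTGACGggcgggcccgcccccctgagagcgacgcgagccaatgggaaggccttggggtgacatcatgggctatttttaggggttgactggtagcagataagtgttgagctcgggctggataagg
KLF6, chr10:3785210-3785459, minus strand: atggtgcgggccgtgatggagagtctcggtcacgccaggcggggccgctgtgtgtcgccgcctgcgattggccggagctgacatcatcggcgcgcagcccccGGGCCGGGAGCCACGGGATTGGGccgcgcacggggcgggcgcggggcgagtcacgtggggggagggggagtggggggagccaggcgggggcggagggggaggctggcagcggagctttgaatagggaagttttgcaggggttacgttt
DUSP1, chr5:172771196-172771445, minus strand: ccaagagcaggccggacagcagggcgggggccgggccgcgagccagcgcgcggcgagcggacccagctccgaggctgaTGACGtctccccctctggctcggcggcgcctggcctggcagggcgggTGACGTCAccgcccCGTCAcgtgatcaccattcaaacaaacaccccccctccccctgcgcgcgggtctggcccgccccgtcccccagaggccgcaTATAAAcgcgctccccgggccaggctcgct
FOS, chr14:75278578-75278827, plus strand: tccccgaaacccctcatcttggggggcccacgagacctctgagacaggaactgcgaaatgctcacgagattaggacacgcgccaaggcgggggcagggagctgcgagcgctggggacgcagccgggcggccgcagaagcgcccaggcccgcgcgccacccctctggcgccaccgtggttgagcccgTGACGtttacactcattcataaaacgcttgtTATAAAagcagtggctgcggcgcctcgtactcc
EGR1, chr5:138465229-138465478, plus strand: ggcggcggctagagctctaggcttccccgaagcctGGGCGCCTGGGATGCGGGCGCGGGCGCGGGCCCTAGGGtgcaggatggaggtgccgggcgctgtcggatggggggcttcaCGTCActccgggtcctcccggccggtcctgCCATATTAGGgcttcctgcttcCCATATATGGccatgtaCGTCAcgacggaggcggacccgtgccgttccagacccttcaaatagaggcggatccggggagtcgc

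A promoter sequence was matched for 7 of the 8 genes, FOSL1 being without one. TGACG was in 6 of the 7 (all but KLF6), and 21.2% of all 35116 promoter windows of this length held it. TATAAA was in FOS, JUNB and DUSP1 (10.7% of all windows), at bases -33 to -28, -31 to -26 and -30 to -25 from the start. Within these 250 bases a CArG box was in EGR1 alone, at -105 to -96 and at -83 to -74 (1.16% of all windows). Bases farther upstream were not searched, so a CArG box there would be missed in any of the genes, FOS included. The G-quadruplex motif was in EGR1 and KLF6 (23.5%). GGGCGG, the GC box, was in 5 of the 7, all but JUNB and EGR1 (42.6%), and CCAAT was in JUN, JUNB and KLF6 (32.0%). In JUN the last base of TGACG is the first of a GC box, in DUSP1 the TGACG matches of opposite strands overlap within TGACGTCA, and in KLF6 a CCAAT match on the other strand lies within the G-quadruplex motif. The GC content of the 7 windows ran from 62.0 to 74.4%, and the median of all windows was 58.0%. Of the genes with both proteins near the start, JUN, JUNB and IER2 had TGACG and KLF6 had no match to it, and EGR1, with no summit within 2 kb, had the CArG boxes, TGACG and the G-quadruplex motif.

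The depth of the libraries is not in the lists, and a summit height is a fragment count not scaled to depth. Heights therefore carry exact 95% Poisson intervals, which cover counting error only. The median height over the whole list was 11 fragments for XPB (interquartile range 9 to 14) and 13 for XPD (11 to 15). The score is the peak caller's p-value on a negative log scale, so that a higher score means a smaller p-value, and no peak below 150 is listed. XPD peaks scoring under 160 had a median height of 12 fragments (5th to 95th percentile 8 to 17) and XPB peaks of 10 (7 to 15), so an absent peak can mean a pileup of about that size as well as none.

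JUN, the AP-1 subunit that pairs with FOS, had the tallest summits within 2 kb of any of the 8 starts in both lists. On chromosome 1 the XPB summit was at 59249744, 41 bp downstream of the start at 59249785, with 34 fragments (23.5 to 47.5) and a score of 637, which exceeded 98.1% of XPB peaks. The XPD summit was at 59249748, 37 bp downstream, with 45 fragments (32.8 to 60.2) and a score of 688, above 98.8% of XPD peaks. The summits were 4 bp apart, less than the 400 to 700 bp fragments can resolve. Lower peaks flanked it. A peak upstream had 12 fragments for XPB at 1010 bp and 13 for XPD at 1100 bp, with scores of 492 and 303. An XPD peak 1048 bp downstream had 12 fragments, a score of 160.1 and no XPB peak over it. Just outside the window were the XPB summit 2193 bp downstream, with 7 fragments, and the XPD summit 2099 bp downstream, with 11. The 4 XPD summits at JUN were spaced 1137, 1011 and 1051 bp apart, with the tall one at the start. The 3 XPB summits were spaced 1051 and 2152 bp apart. The XPD peak 1048 bp downstream, which XPB lacked, scored above only 19.2% of XPD peaks.

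JUNB, a JUN relative that often restrains JUN activity, had a low and broad peak of each protein over its start on chromosome 19 at 12902310. The XPB summit lay 47 bp upstream with 12 fragments (6.20 to 21.0), and the XPD summit 733 bp upstream with 10 (4.80 to 18.4). The peaks were 1635 and 1375 bp wide and shared 1271 bp, although their summits were 686 bp apart. Their scores of 445 and 251 were higher than 95.2 and 80.7% of their lists, while their heights exceeded only 52.9 and 8.98%. Farther out, XPD had a summit 2533 bp upstream (11 fragments), and XPB had summits 9266 bp upstream (9) and 4747 bp downstream (10), none of which overlapped the other list.

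FOS, the AP-1 subunit best known for its rapid and brief induction, had the lowest XPB height and score of the 7 genes with a summit. Its only XPB peak within 10 kb ran from 75744354 to 75745482 on chromosome 14 and ended 1 bp past the start at 75745481. The summit was 920 bp upstream with 10 fragments (4.80 to 18.4). The score was 151, ranked 21269 of 21555, so the call rests on a value at the lower limit of the list. The nearest XPD summit was 8837 bp upstream, with 10 fragments and a score of 166, and no XPB peak overlapped it.

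FOSL1, the FOS-family subunit associated with invasive and RAS-driven tumours, lay among many peaks but carried only XPB at its start. On chromosome 11 the XPB summit was 98 bp downstream of 65667997, with 16 fragments (9.15 to 26.0) and a score of 420, higher than 94.4% of XPB peaks. The other XPB summit counted, 1925 bp upstream with 16 fragments and a score of 201, was the farthest inside the 2 kb window of any gene. No XPD peak overlapped either. The nearest XPD summit was 2941 bp upstream, with 17 fragments and a score of 244, and it overlapped an XPB peak with its summit 2572 bp upstream (14 fragments, score 417). Within 10 kb FOSL1 had 8 XPB and 4 XPD summits, and all 4 XPD peaks overlapped XPB peaks. The highest-scoring pair was downstream, at 8439 bp for XPB (14 fragments, score 704) and 8142 bp for XPD (12 fragments, score 598). The remaining XPB summits lay 9914 bp (9 fragments) and 7022 bp (10) upstream and 3101 bp (10) and 3505 bp (9) downstream. The remaining XPD summits lay 9405 bp upstream (15 fragments) and 3094 bp downstream (15). In the RefSeq gene order CCDC85B follows FOSL1 downstream and C11orf68 lies upstream; peaks were not assigned to these neighbours.

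**Figure D2:**
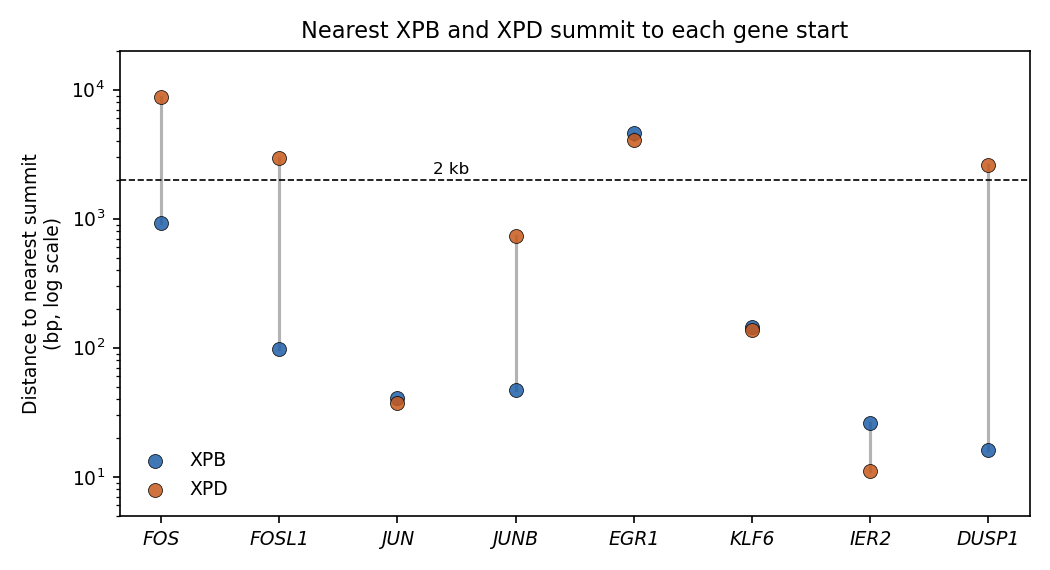
Distance in bp, on a log scale, from each gene start to the nearest XPB (blue) and XPD (orange) summit, with the 2 kb limit dashed. XPB lay within 250 bp at JUN, JUNB, FOSL1, IER2, DUSP1 and KLF6, XPD at JUN, IER2 and KLF6, and at EGR1 both were beyond 4 kb.

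EGR1, the zinc-finger factor whose promoter is a classic target of serum response factor, was the only gene with no summit of either list within 2 kb. Its start is on chromosome 5 at 137801181. The nearest XPB summit lay 4649 bp downstream (10 fragments, 4.80 to 18.4, score 294) and the nearest XPD summit 4088 bp downstream (11 fragments, 5.49 to 19.7, score 182). These peaks overlapped by 856 bp with summits 561 bp apart. An XPB summit 5968 bp upstream had 8 fragments and a score of 153, with no XPD peak over it. No peak of either list covered the start.

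KLF6, a zinc-finger factor of the Kruppel-like family that binds GC-rich promoters, had a double peak of both proteins around its start on chromosome 10 at 3827473. The upstream and downstream summits were 364 bp apart for XPB and 380 bp for XPD, less than the length of the 400 to 700 bp fragments. Both lists nonetheless give them as separate peaks that do not overlap. The upstream peaks were 283 bp wide for XPB and 295 bp for XPD, narrower than 1 such fragment. Whether they are separate binding sites was not tested. Upstream, the XPB summit was at 218 bp with 30 fragments (20.2 to 42.8) and the XPD summit at 242 bp with 18 (10.7 to 28.4). Downstream, the XPB summit was at 146 bp with 24 fragments (15.4 to 35.7) and the XPD summit at 138 bp with 29 (19.4 to 41.6). XPB was thus the taller of the upstream pair and XPD of the downstream pair, but all these intervals overlap between the proteins. XPD over XPB height was -0.74 on the log2 scale (exact binomial 95% interval -1.67 to 0.15) upstream and 0.27 (-0.56 to 1.12) downstream. The XPB peaks ran from 3827590 to 3827872 and from 3826998 to 3827474, and the XPD peaks from 3827595 to 3827889 and from 3826990 to 3827464. The downstream XPB peak included the start and the downstream XPD peak stopped 9 bp short of it. Another XPD summit lay 1154 bp downstream (17 fragments, score 177), in a peak that overlapped an XPB peak with its summit at 2265 bp (10 fragments, score 263), just outside the window. An XPB summit 3378 bp downstream had 13 fragments and a score of 291. Peaks of both proteins reached farther downstream, to summits at 5167 bp for XPB (17 fragments) and 5143 bp for XPD (13).

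IER2, whose product is induced together with FOS and JUN, carried both proteins at the start and at a series of sites downstream. At the start, on chromosome 19 at 13261282, the XPB summit was 26 bp upstream with 15 fragments (8.40 to 24.7) and the XPD summit 11 bp upstream with 17 (9.90 to 27.2). Their scores, 184 and 216, were ordinary for the lists, higher than 45.3 and 69.7% of peaks. At 1184 bp downstream XPB had 18 fragments, and at 1163 bp XPD had 16. The tallest summits within 10 kb of any of the 8 starts followed outside the 2 kb window. The XPB peak from 13263402 to 13264223 had its summit 2565 bp downstream with 38 fragments (26.9 to 52.2) and a score of 1032, rank 120. The XPD peak from 13263409 to 13264201 had its summit 2586 bp downstream with 46 (33.7 to 61.4) and a score of 883, rank 101. Lower pairs followed at 3908 and 3991 bp and at 4752 and 4890 bp. All 5 XPD peaks within 10 kb overlapped XPB peaks, with summits 15 to 138 bp apart. XPB alone was listed at 3194 and 6908 bp upstream, on the side of the neighbouring gene STX10. Peaks, including those at the IER2 start, were not assigned between IER2 and STX10, whose start was not placed on hg19.

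DUSP1, which ends MAP kinase signalling by dephosphorylating the kinases, had a compact XPB peak of 592 bp centred on its start on chromosome 5 at 172198203. The summit was 16 bp downstream with 17 fragments (9.90 to 27.2) and a score of 254, higher than 78.0% of XPB peaks. No XPD peak overlapped it. The nearest XPD summit was 2623 bp upstream, with 10 fragments (4.80 to 18.4) and a score of 200.0, and had no XPB peak over it. A second XPB summit 4489 bp downstream had 16 fragments and a score of 184, again with no XPD partner. DUSP1 and FOS were the genes at which no XPB and XPD peaks overlapped anywhere within 10 kb.

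**Figure D3:**
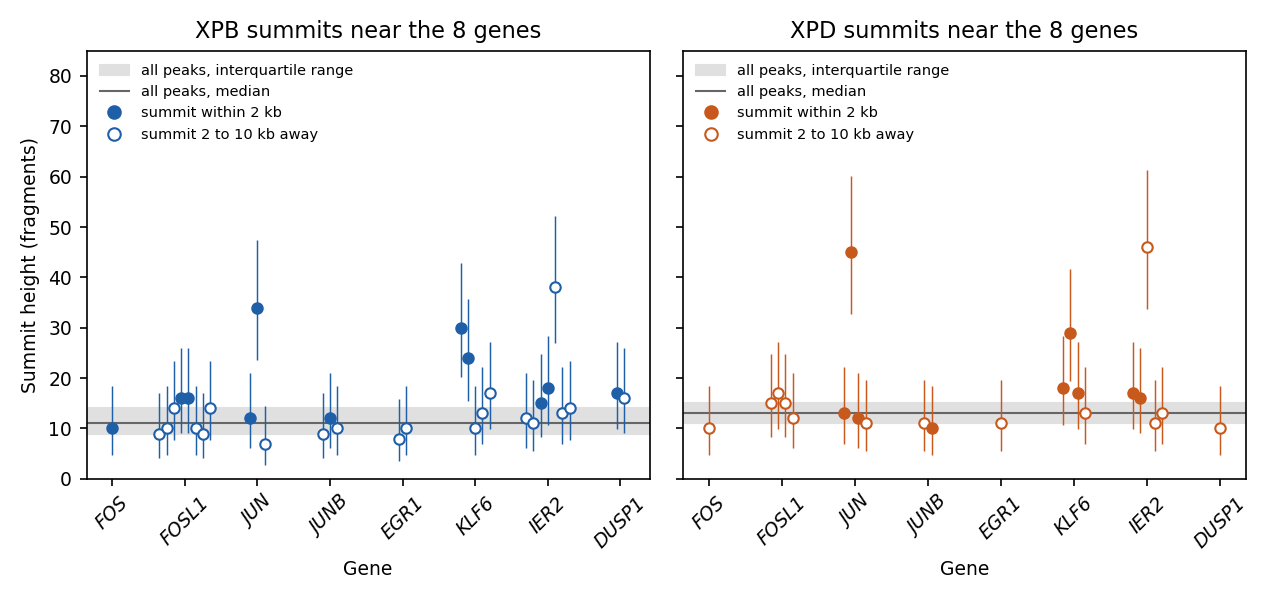
Summit heights in fragments with exact 95% Poisson intervals for XPB (left) and XPD (right), for every summit within 10 kb of each gene start in order from upstream to downstream; filled points are within 2 kb, and the grey band and line are the interquartile range and median of the whole list. JUN, KLF6 and IER2 hold the summits whose whole interval lies above the band, up to 38 fragments for XPB and 46 for XPD, both at IER2.

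Across the 8 genes, summits within 2 kb had a median of 16 XPB fragments (10 to 34) and 17 XPD fragments (10 to 45). Of the 11 XPB summits, 10 were taller than the list's median and 9 scored above its median. Of the 9 XPD summits, 6 were taller and 6 scored higher. Upstream and downstream positions were about equally common, with 6 upstream and 5 downstream for XPB and 4 and 5 for XPD. This split is approximate. At JUN, JUNB, IER2 and DUSP1 it includes summits only 11 to 47 bp from the start, whose side depends on the exact base taken as the start. Of these peaks, 7 of the 11 XPB and 8 of the 9 XPD overlapped a peak of the other list by at least 1 bp, and 26.6% of all XPB and 38.7% of all XPD peaks did. The shares over all peaks are not matched to the heights or scores of the peaks near these genes. Peaks at the same gene are neighbours in the same libraries and are not independent. The 4 XPB peaks without an XPD partner were those of FOS and DUSP1 and both of FOSL1, and the XPD peak without an XPB partner was at JUN.

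In the wider windows of 10 kb on each side, the genes held 31 XPB and 22 XPD summits, or 3.88 and 2.75 per gene. The mean over all positions of the covered span was 0.145 and 0.0978. Most positions are not near a gene start and other gene starts were not counted, so this does not set these genes apart from other genes. The number varied widely: FOSL1 had 8 XPB and 4 XPD summits, IER2 7 and 5, KLF6 5 and 4, JUN 3 and 4, JUNB 3 and 2, EGR1 and DUSP1 2 and 1 each, and FOS 1 of each. Every gene had at least 1 summit of each protein in this window.

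Mutually best overlapping XPB and XPD peaks formed 18 pairs within 10 kb of the starts, with 5 at IER2, 4 each at FOSL1 and KLF6, 3 at JUN and 1 each at JUNB and EGR1. Their summits lay a median of 92 bp apart, and 11 of the 18 were within 250 bp. Over all 5536 such pairs the median was 97.5 bp, and 68.5% were within 250 bp. The XPD summit was taller in 11 of the 18, the XPB summit in 6, and 1 was equal. Pairs were set by shared bases, so the heights of a pair can come from different places. At KLF6 the summits of 2 pairs lay 1111 and 1765 bp apart, the latter being the pair of equal height. Its XPD summit lay 24 bp from another XPB summit, 5167 bp downstream, which was left unpaired. The log2 ratio of XPD to XPB height ran from -0.74 to 0.77, with a median of 0.16, and the median of all pairs was 0.11 (interquartile range -0.19 to 0.38). The counting interval of every one of the 18 ratios included the median of all pairs, so no difference in relative height was detectable at this depth. For the nearest summits at JUN, JUNB, IER2 and KLF6 combined, XPB had 85 fragments and XPD 101, a log2 ratio of 0.25 (exact binomial 95% interval -0.18 to 0.68).

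**Figure D4:**
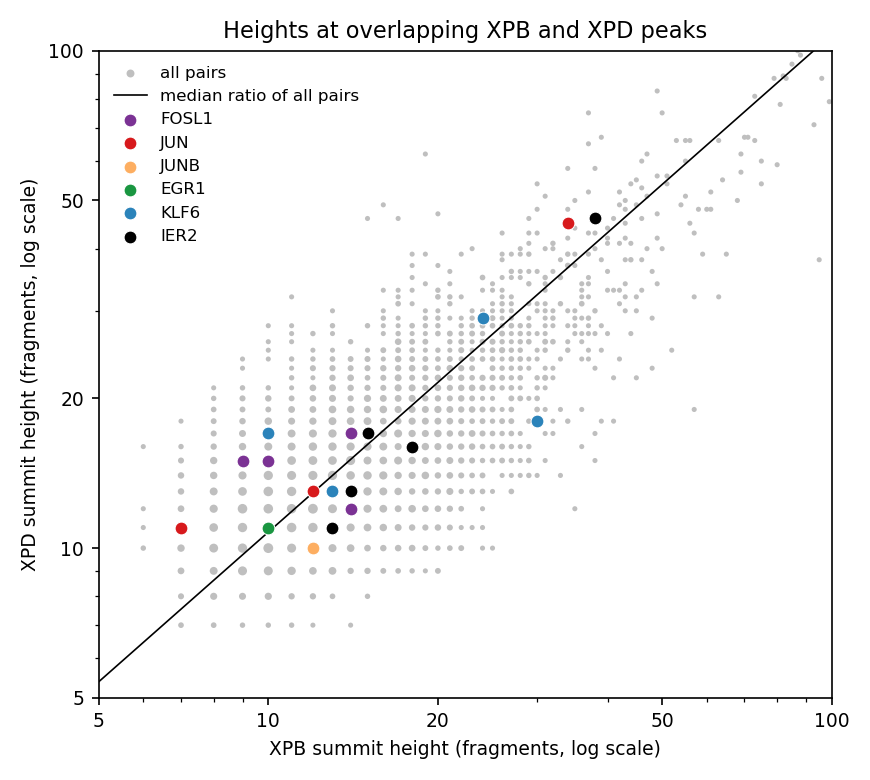
XPD against XPB summit height in fragments, both on log scales, for pairs of peaks that are each other's largest overlap; grey points are all such pairs up to 100 fragments, with larger points for more pairs at the same heights, and coloured points are the 18 pairs near the immediate early genes. The line is the median ratio of all pairs, and the coloured points lie on both sides of it, with the tallest pairs, at JUN and IER2, a little above.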

How the data were processed

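The deposited files are peak lists, 1 per antibody. Per the submitters' processing notes, reads were handled with Bowtie 0.12.7 and MACS 1.4 on hg19; the caller's settings, its control and the read numbers are not given in the sources used here. The deposited peak score and the deposited summit signal (pileup height, not scaled to depth) follow the usual MACS layout. The protocol text shared by the samples names an antibody against CSB, and the antibody fields, which name XPB and XPD, were followed.

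Gene starts in hg19 were given with the list of genes. The genes, window and gene lists were chosen with earlier results of these data known. Summits are 1-based; offsets are signed by strand, taken from the RefSeq promoter table for 7 genes and, for FOSL1, from general knowledge (minus). Other immediate early genes were not looked up, since no hg19 annotation was used. All 8 genes were named, with every summit within 10 kb. With 1 library per antibody no test was run and no p-value is given. Functions were tested on simulated lists. Promoters came from RefSeq (GRCh38.p14). The versions were Python 3.11.15, scipy 1.17.1, pandas 2.3.3, numpy 2.4.6 and, for plots, matplotlib 3.10.9.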

Additional observations from a re-analysis of the deposited data

How the results depend on the processing

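Of 40 alternatives to the counts, medians and background shares, 22 stayed near the reported value (counts within 1.5 times, others equal or within counting error) and 18 moved. Of the counts of genes with XPB, XPD and both (7, 4 and 4), a 5 kb window gave 8, 7 and 7, and a score of at least 300 gave 4, 2 and 2, with JUN and KLF6 left for both. FOS was lost from the XPB count at 500 bp, at a score of at least 200 (with IER2), and when the XPB list was cut to the length of the XPD list; JUNB was lost from XPD at 500 bp, and KLF6 when the peak had to cover the start. Overlap of the peaks, added after seeing the data, kept all 4 genes with both; summits within 250 bp of each other left 3, without JUNB. The median distance to the nearest summit was 98 bp for XPB and 87.5 bp for XPD with the highest-scoring peak at the genes present, 122 bp for XPB at scores of at least 200, and 1356 and 10808 bp at scores of at least 300. The median distance between XPB and XPD summits at the 4 starts, 11.5 bp for the nearest ones, was 521 bp with the highest-scoring peaks and 21 bp with best-overlapping peaks. Their median log2 height ratio of 0.23 was 0.12 relative to all pairs, -0.06 with scores and -0.07 with the tallest summits; the counting interval of the ratio of summed heights (0.25), -0.18 to 0.68, includes 0. The share of positions near an XPB or XPD summit was 2.9 and 1.99% over autosomes, 1.41 and 0.961% at 1 kb and 6.16 and 4.31% at 5 kb. No paired analysis was possible because each antibody has 1 library and no test was run. Unknown read depth and the score limit of 150 bound what absence from a list can show.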
